A study of Mus musculus with 19 samples.

Results

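Genes of the neural lineage were measured as a given list of 9: the transcription factors Sox1, Sox4, Sox11, Pax6, Zic1 and Hes5, the intermediate filament gene Nes, the tubulin gene Tubb3 and the adhesion gene Ncam1. They are 9 of 54119 mouse genes obtained by summing the deposited transcript values per gene, and 5 of them (Sox4, Sox11, Nes, Tubb3 and Ncam1) were among the 14972 genes that reached 1 TPM in at least 3 libraries and were tested. TPM, transcripts per 1000000 transcripts counted, is a level per transcript length, so it can be compared between genes. Sox1, Pax6, Hes5 and Zic1 did not pass that filter and are given as levels.

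The neural lineage arises from the epiblast when signals that hold it back are low. Sox1, Pax6 and Zic1 are early neural transcription factors, Hes5 is a repressor that acts downstream of Notch receptors, and Nes encodes nestin, a filament of neural progenitors. Sox4 and Sox11 are related SoxC factors, which act in committed progenitors and new neurons and are also made in other embryonic tissues, while Tubb3 and Ncam1 encode a tubulin and a cell adhesion molecule found in neurons.

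RNA of 19 libraries was compared in 6 groups: mouse embryonic stem cells (mESC) and epiblast-like cells (EpiLC) of 3 genotypes. XX wild-type cells (3 mESC and 3 EpiLC libraries) were of the LF2 line, XY wild-type cells (3 and 3) of the E14 line, and XX Tet3-/- cells (mutants #1 to #4 in mESC and #1, #3 and #4 in EpiLC) of LF2. All mESC were passaged with LIF, a GSK3 inhibitor and a MEK1/2 inhibitor, and EpiLC were made from them with FGF5 and Activin A in place of LIF over 5 days. The series asks whether TET3, which oxidises methylated cytosine, is required for that change of state. Whether the mutants are separate clones, and whether replicates were separate cultures, is not given in the sources used here, so p-values measure the spread between these libraries, which may be technical. XX and XY differ in line as well as in sex, and these cannot be told apart.

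The sequencing depth behind each value is unknown. One abundant RNA, Rn7s1, took between 23.5 and 43.7% of TPM in a library, and factors from median-of-ratios scaling ran from 0.595 to 1.70. From mESC to EpiLC the median tested gene moved by a log2 value of 0.14 in XX cells, 0.54 in XY cells and -0.13 in mutant cells, and in EpiLC by -0.59 between XX and XY. Scaling brought the median of every comparison to within 0.02 of 0. Scaled values are therefore given beside TPM where they differ in call or sign. The 9 naive pluripotency markers (Klf4, Esrrb and others) all fell in each of the 3 transitions. In Tet3-/- EpiLC the library of mutant #3 stood apart, with 132 TPM summed over 8 mesoderm and primitive streak markers against 3.66 in #1 and 3.70 in #4. Tet3 itself, the check of the label, was not called on TPM between mutant and XX cells in mESC (log2 fold change -0.08, limma adjusted p = 0.885) or in EpiLC (-0.39, limma adjusted p = 0.525). Scaled Tet3 did not overlap in EpiLC, with 1.06 to 1.32 in mutants and 1.41 to 1.92 in XX. How many tested genes were lower in this way on that scale was not counted. In mESC it overlapped, with 0.522 to 0.847 in mutants and 0.656 to 1.24 in XX.

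Promoter windows of 8 of the 9 genes were found in the RefSeq table (GRCm38.p6), 9 windows in all because Pax6 has 2. Those of Sox4, Sox11 and Nes are shown because these 3 genes rose in every genotype, each as the 250 bases before the start, 5′ to 3′ on the gene's strand. Capitals mark the CCAAT box, CCAAT on either strand (ATTGG on the reverse), and the Nes window holds none. The windows are chr13:28953700-28953949 (minus strand), chr12:27342719-27342968 (minus strand) and chr3:87970843-87971092 (plus strand).
Sox4: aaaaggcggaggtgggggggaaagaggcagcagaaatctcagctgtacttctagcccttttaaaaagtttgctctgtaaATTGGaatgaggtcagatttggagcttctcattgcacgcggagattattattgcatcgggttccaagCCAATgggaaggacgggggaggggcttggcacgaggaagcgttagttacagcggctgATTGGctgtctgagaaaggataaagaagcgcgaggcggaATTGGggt
Sox11: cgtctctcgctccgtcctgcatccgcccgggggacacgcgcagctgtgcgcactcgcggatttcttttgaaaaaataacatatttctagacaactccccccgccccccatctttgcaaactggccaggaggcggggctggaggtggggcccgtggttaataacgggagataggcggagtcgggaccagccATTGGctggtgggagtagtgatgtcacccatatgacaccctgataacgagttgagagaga
Nes: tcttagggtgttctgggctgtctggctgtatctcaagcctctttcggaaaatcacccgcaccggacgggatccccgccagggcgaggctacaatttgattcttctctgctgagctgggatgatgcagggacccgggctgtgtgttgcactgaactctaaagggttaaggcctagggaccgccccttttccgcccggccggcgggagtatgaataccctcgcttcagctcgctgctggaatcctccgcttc

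Sox4 holds 4 CCAAT boxes in this window, 167, 100, 43 and 4 bases before the start, and Sox11 holds 1, 56 bases before it. A CCAAT box was found in 7 of the 9 windows, those of Sox1, Sox4, Sox11, Hes5, Zic1, Tubb3 and 1 of the pair of Pax6, against 33.8% of 32851 windows of the same length. The GC box GGGCGG, on either strand, was found in 5 windows (Sox1, Sox11, Nes, Zic1 and Tubb3) against 32.7% of all. The octamer ATGCAAAT was in none of the 9, against 1.6% of all. The SOX motif ACAANG was in 4 windows against 36.3%, and the E-box CANNTG in 5 against 66.2%. The motifs were chosen after the sequences were seen, and each count is a description. Matches of different motifs can overlap.

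Hes5 is shown for the motif of RBPJ, the DNA-binding partner of Notch, because it is the member that acts downstream of Notch receptors. Its window is chr4:154960673-154960922 (plus strand), and capitals mark TGGGAA or its reverse, TTCCCA.
Hes5: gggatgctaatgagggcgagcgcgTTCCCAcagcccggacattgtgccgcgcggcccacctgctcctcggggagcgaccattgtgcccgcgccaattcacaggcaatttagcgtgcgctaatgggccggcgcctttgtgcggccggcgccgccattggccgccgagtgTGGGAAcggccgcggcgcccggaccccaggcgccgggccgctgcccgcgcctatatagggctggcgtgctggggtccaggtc

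The RBPJ motif occurred 221 and 77 bases before the start of Hes5. Among the other members it was found in Sox4 alone, 95 bases before the start, and 21.6% of all windows hold it.

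Nes, Sox4 and Sox11 were low in mESC and rose in EpiLC of all 3 genotypes, by a log2 fold change of 2.00 to 3.94. Nes had the highest TPM of the 9 genes in each EpiLC group, and Sox11 went from at most 0.155 TPM in any mESC library to at least 3.01 TPM in any EpiLC library. Ncam1 went the other way in LF2 cells, wild-type and mutant, and Tubb3 was not called in any transition on TPM in the fit of all libraries by group. Sox1, Pax6, Hes5 and Zic1 stayed at or below 1.23 TPM in all 19 libraries.

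**Figure D1:**
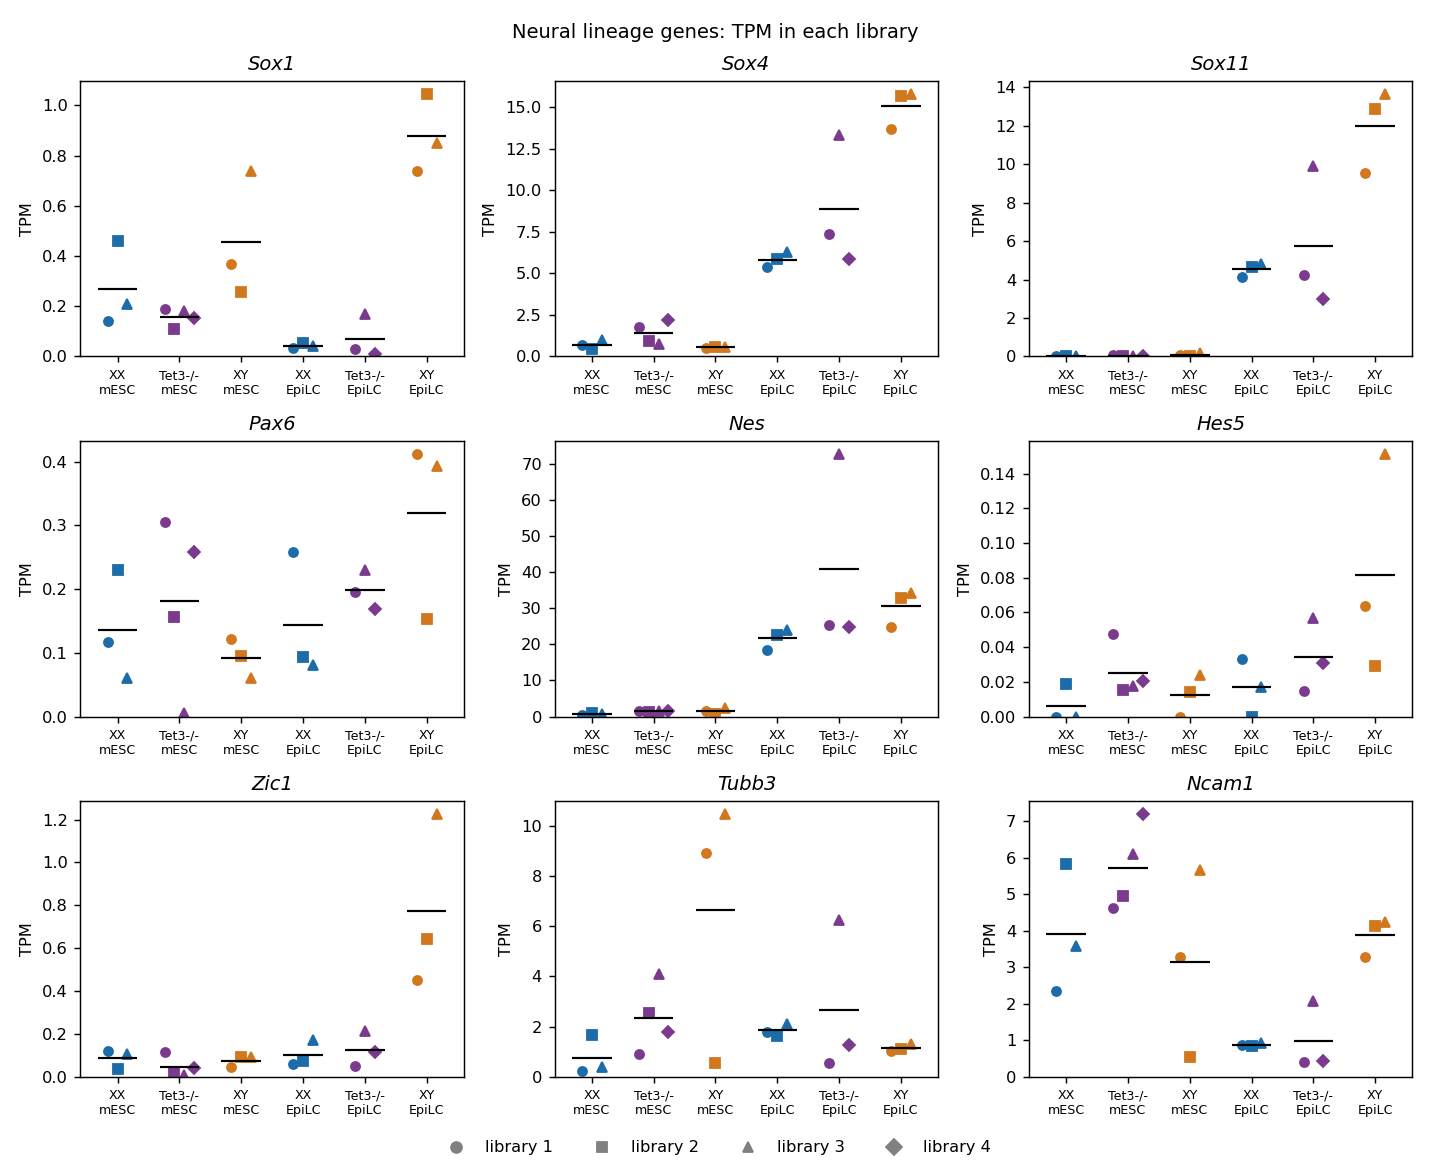
TPM (linear axes from 0, a different range per panel) of the 9 neural lineage genes in each library, by group. Points are libraries, with the symbol giving the library or mutant number, and black lines are group means. Sox4, Sox11 and Nes are higher in every EpiLC library than in any mESC library, and mutant #3 is the highest Tet3-/- EpiLC library for these genes.

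In XX cells Nes had 0.461, 1.07 and 0.666 TPM in mESC and 18.6, 22.6 and 23.9 TPM in EpiLC. In XY cells it had 1.47, 0.838 and 2.30 TPM in mESC and 24.9, 32.8 and 34.2 TPM in EpiLC. In Tet3-/- cells it had 1.5, 1.14, 1.58 and 1.46 TPM in mESC (mutants #1 to #4) and 25.5, 72.8 and 24.9 TPM in EpiLC (#1, #3 and #4). All EpiLC libraries were far above all mESC libraries, and mutant #3 was the highest library, ahead of XY EpiLC 3. The log2 fold change was 3.72 (SE 0.32) in XX, with a limma adjusted p of 4.61e-08. It was 3.67 (SE 0.32, limma adjusted p = 2.84e-08) in XY and 3.94 (SE 0.30, limma adjusted p = 6.37e-09) in Tet3-/-. With 1 added to each TPM before the log2, a fold change comes out too small for genes at low levels. The transcript Nes-201, which codes for the full protein, carried 79.0 to 100% of Nes TPM in each library of XX mESC and 91.9 to 93.2% in XX EpiLC.

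Sox4 had 0.707, 0.470 and 0.971 TPM in XX mESC and 5.36, 5.88 and 6.28 TPM in XX EpiLC. In XY cells the values were 0.511, 0.583 and 0.549 TPM in mESC and 13.7, 15.7 and 15.8 TPM in EpiLC. Mutants had 1.76, 0.954, 0.772 and 2.17 TPM in mESC and 7.39, 13.4 and 5.89 TPM in EpiLC. No mESC library reached the lowest EpiLC library, and on TPM the XY EpiLC libraries were above all others. On scaled TPM they had 9.98, 9.42 and 9.29, within the range of the mutants (9.01 to 10.0). The log2 fold change was 2.00 (SE 0.25, limma adjusted p = 4.44e-06) in XX, 3.37 (SE 0.25, limma adjusted p = 3.76e-09) in XY and 2.00 (SE 0.23, limma adjusted p = 1.53e-06) in Tet3-/-.

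Sox11, the relative of Sox4, was close to 0 in mESC, with 0.0097, 0.0093 and 0.014 TPM in XX and 0.071, 0.029 and 0.155 TPM in XY. Mutant mESC had 0.053, 0.044, 0.0084 and 0.041 TPM. In EpiLC it had 4.14, 4.66 and 4.79 TPM in XX, 9.54, 12.9 and 13.7 TPM in XY and 4.23, 9.94 and 3.01 TPM in mutants #1, #3 and #4. XY EpiLC was again highest, but mutant #3 lay within the XY range. The log2 fold change was 2.45 (SE 0.25, limma adjusted p = 3.76e-07) in XX, 3.57 (SE 0.25, limma adjusted p = 1.83e-09) in XY and 2.56 (SE 0.23, limma adjusted p = 6.71e-08) in Tet3-/-.

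Ncam1, the neural cell adhesion molecule, had 2.36, 5.82 and 3.59 TPM in XX mESC and 0.868, 0.827 and 0.918 TPM in XX EpiLC. Mutants had 4.63, 4.97, 6.10 and 7.21 TPM in mESC and 0.411, 2.06 and 0.438 TPM in EpiLC. In XY cells it had 3.28, 0.540 and 5.66 TPM in mESC and 3.29, 4.12 and 4.25 TPM in EpiLC. The states did not overlap in either LF2 genotype, while in XY cells they overlapped and XY mESC 2 was the lowest XY library. Ncam1 fell by 1.34 on the log2 scale in XX (SE 0.40, limma adjusted p = 0.0156) and by 1.86 in Tet3-/- (SE 0.37, limma adjusted p = 0.000646). The change in XY was 0.46 (SE 0.40, limma adjusted p = 0.341), and 0.02 on scaled TPM. The XX call was lost without XX mESC 2 (-1.07, limma adjusted p = 0.0714). The XY change was -0.13 without XY mESC 2 and 0.92 (limma adjusted p = 0.0491) without XY mESC 3.

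Tubb3 varied more between libraries of 1 group than between states. It had 0.218, 1.65 and 0.392 TPM in XX mESC, 8.94, 0.557 and 10.5 TPM in XY mESC and 0.895, 2.53, 4.08 and 1.79 TPM in mutant mESC. In EpiLC it had 1.80, 1.63 and 2.10 TPM in XX, 1.02, 1.1 and 1.28 TPM in XY and 0.527, 6.26 and 1.25 TPM in the mutants. XY mESC 1 and 3 were the highest libraries, and XY mESC 2 was below every XY EpiLC library. The log2 fold change was 0.78 (limma adjusted p = 0.377) in XX, -1.40 (limma adjusted p = 0.0638) in XY and -0.09 (limma adjusted p = 0.927) in Tet3-/-. The XY change passed on scaled TPM (-1.66, limma adjusted p = 0.0183) and without XY mESC 2 (-2.33, limma adjusted p = 0.00104). Tubb3 is uncertain because the read-through gene Gm20388 overlaps it on the same strand and was above 0 in 6 libraries, up to 4.59 TPM in XY EpiLC 3. With both summed, XY EpiLC had 1.02, 2.54 and 5.87 TPM and the XY change was -0.62 (limma adjusted p = 0.439).

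Counted over the 5 tested genes, 3 rose and 1 fell in XX, 3 rose and none fell in XY, and 3 rose and 1 fell in Tet3-/-. In the background of all tested genes limma called 31.3% in XX (19.2% higher and 12.2% lower), 50.5% in XY (41.1% higher and 9.36% lower) and 35.1% in Tet3-/- (13.6% higher and 21.5% lower). Scaling evened that balance, with 50.4% called in XX (24.5% higher and 25.9% lower), 51.4% in XY (26.4% and 25%) and 52.4% in Tet3-/- (25.2% and 27.2%). On that scale 3 of the 5 rose and 1 fell in each genotype, Tubb3 being the 1 in XY cells. Their median log2 fold changes were 2.00 (XX), 3.37 (XY) and 2.00 (Tet3-/-). All libraries of the states were apart, higher in EpiLC, for Sox4, Sox11 and Nes in each genotype, a pattern shared by 29.2% of tested genes in XX, 44.9% in XY cells and 14.9% in mutant cells. The opposite order, that of Ncam1 in LF2 cells, was shared by 17.1, 12.1 and 21.5%. Sox11 passed the filter through EpiLC alone, and Sox4, at 1 TPM or more in 2 mESC libraries, also needed EpiLC to pass, so the rise of both follows in part from the filter. In bulk RNA a change in the share of cells that make a transcript and a change per cell cannot be told apart.

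**Figure D2:**
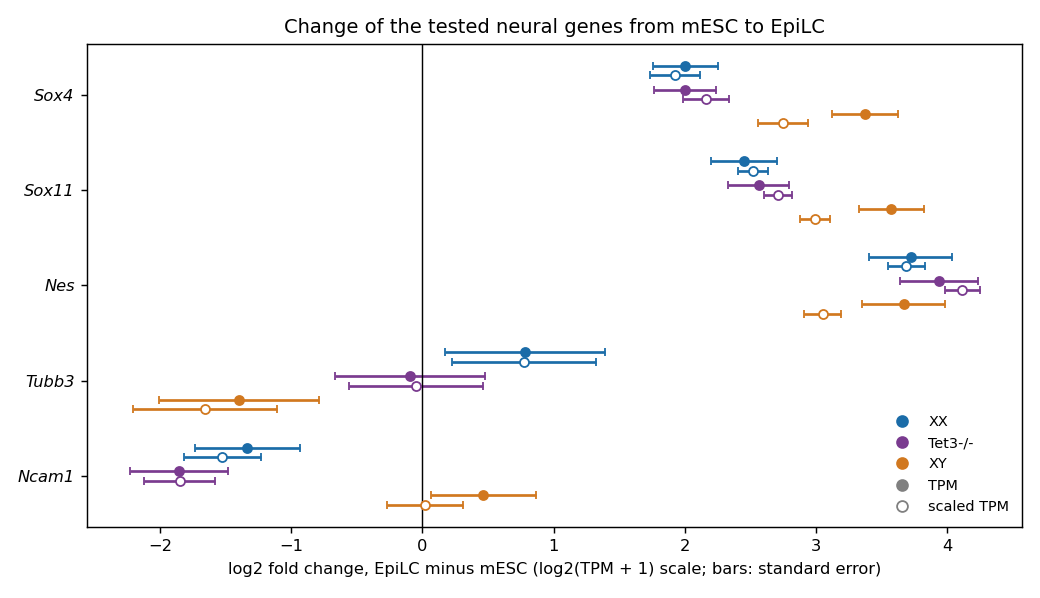
Log2 fold change from mESC to EpiLC (x axis, log2(TPM + 1) scale) of the 5 tested genes in XX, Tet3-/- and XY cells, on TPM (filled) and on scaled TPM (open), with the standard error as bars. Sox4, Sox11 and Nes lie to the right of 0 throughout, and Ncam1 lies to the left in XX and Tet3-/- but not in XY.

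The early factors that define neural fate were low everywhere. Sox1, among the first markers of neural cells, had 0.141, 0.460 and 0.210 TPM in XX mESC, 0.368, 0.258 and 0.738 TPM in XY mESC and 0.190, 0.111, 0.183 and 0.151 TPM in mutant mESC. In EpiLC it had 0.032, 0.053 and 0.042 TPM in XX, 0.738, 1.04 and 0.851 TPM in XY and 0.029, 0.167 and 0.0084 TPM in the mutants. It was thus lower in each XX EpiLC library than in any XX mESC library, and all XY EpiLC libraries were above all LF2 libraries. Fitted on TPM without the filter, Sox1 was called higher in the XY transition (0.38, limma adjusted p = 0.0345), as were 18.6% of 46217 genes in that fit. The same fit called it lower in XX than in XY EpiLC (-0.85, limma adjusted p = 0.000192), as it did 16% of genes. Scaled Sox1 had 0.539, 0.627 and 0.500 in XY EpiLC and 0.390, 0.352 and 0.538 in XY mESC. The XY states thus overlapped on that scale. The overlapping transcript Sox1ot lies on the same strand and was at most 0.180 TPM.

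Zic1, a zinc finger factor of the dorsal neural tube, had 0.451, 0.642 and 1.23 TPM in XY EpiLC. No other library exceeded 0.212 TPM. XY EpiLC therefore did not overlap any other group. Of tested genes, 44.9% were likewise above XY mESC without overlap, and 65.8% above XX EpiLC. Without the filter limma called Zic1 higher in the XY transition (0.70, adjusted p = 0.000277), as it did 18.6% of genes. The same fit called it lower in XX than in XY EpiLC (-0.66, adjusted p = 0.000942), as it did 16%. Pax6, an eye and forebrain factor, was at most 0.412 TPM. Neighbouring groups overlapped in its order from XY EpiLC (0.319 ± 0.144 TPM, SD, n = 3) down to XY mESC (0.0920 ± 0.0306 TPM, SD, n = 3). The ends of that order, 0.153 to 0.412 TPM and 0.060 to 0.121 TPM, did not overlap, a pattern that 44.9% of tested genes showed. Scaled, they overlapped (0.092 to 0.301 and 0.044 to 0.129). Hes5 was listed at 0 in 2 of the XX mESC libraries, 1 XY mESC library and 1 XX EpiLC library. Its highest value was 0.151 TPM, in XY EpiLC 3, and no neighbouring groups in its order were separated. XY EpiLC (0.064, 0.029 and 0.151 TPM) nevertheless lay above XY mESC on TPM. There the fit without the filter called Hes5 higher in that transition (0.093, limma adjusted p = 0.0345), at levels close to 0. On scaled TPM the XY states overlapped, with XY EpiLC 2 at 0.0175 and XY mESC 2 at 0.0189.

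Between Tet3-/- and XX cells none of the 5 tested genes was called on TPM by limma, in mESC (background 0.601% of all tested genes) or in EpiLC (1.08%). At an unadjusted limma p of 0.05, the mESC comparison held 1359 genes and the EpiLC comparison 1439, Nes in EpiLC among them. In mESC all 5 log2 fold changes were above 0, from 0.04 for Sox11 to 0.92 for Tubb3, where the median tested gene was at 0.19 (on scaled TPM 0.03 to 0.87), and the largest of them had a limma adjusted p of 0.708. Nes was higher in each mutant mESC library than in any XX mESC library, a pattern that 8.23% of tested genes showed.

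In EpiLC the log2 fold changes of Tet3-/- against XX were 0.71 for Nes (SE 0.32, limma adjusted p = 0.464), 0.46 for Sox4, 0.15 for Sox11, 0.04 for Tubb3 and -0.02 for Ncam1. On scaled TPM Nes had 33.9, 54.7 and 38.1 in mutants #1, #3 and #4 and 21.6, 23.6 and 23.6 in XX. All mutants thus lay above all XX libraries on that scale. The scaled difference was 0.82 (SE 0.14), with a limma adjusted p of 0.00277, against a background of 5.46% called. Leaving out mutant #3 as well, it was 0.63 (limma adjusted p = 0.0047), whereas on TPM without mutant #3 it was 0.21. The call of Nes therefore rests on the scaling.

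Scaled Sox4 had 9.80, 10.0 and 9.01 in mutants #1, #3 and #4 and 6.23, 6.11 and 6.20 in XX EpiLC. These did not overlap, as for Nes, a pattern that 13.9% of tested genes showed on that scale, and the difference of 0.56 was not called (limma adjusted p = 0.102). The transition itself did not differ between Tet3-/- and XX for any of the 5 genes (background 0.174%), and limma adjusted p ran from 0.816 for Tubb3 to 0.999 for Sox4. The differences ran from -0.88 (SE 0.84) for Tubb3 to 0.22 (SE 0.44) for Nes, so changes of that size cannot be told from 0 here. At an unadjusted p of 0.05 that comparison held 1152 genes, none of them one of the 5. Of the genes in the neural lists below, 1 was called on TPM, Sox21, a progenitor factor named here after its values were seen (-1.66, limma adjusted p = 0.0194). Scaled, 1 progenitor factor was called higher and 2 lower, and 1 cytoskeleton and adhesion gene was called higher. Over all tested genes that fit called 37 higher and 62 lower.

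Mutant #3 had the highest EpiLC value of the mutants for each of the 9 genes, although for Pax6 it had 0.230 TPM against 0.196 and 0.168. That order holds on TPM. The scaling factor was 1.33 for #3 against 0.754 for #1 and 0.654 for #4, and on scaled TPM #3 was lowest for Pax6 (0.172 against 0.260 and 0.258) and below #4 for Hes5 and Zic1. The 9 genes summed to 105 TPM in mutant #3, against 38.4 in #1, 35.8 in #4, 31.1 to 38.3 in XX and 54.1 to 71.8 in XY. Nes alone made up 72.8 of the 105 TPM, against 24.9 to 34.2 TPM of Nes in XY EpiLC. These sums and their order are on TPM. Scaled, Nes ran from 33.9 to 54.7 in the mutants, 21.6 to 23.6 in XX and 18.2 to 20.1 in XY. On that scale #1 and #4 were thus above both wild types for Nes. Sox4, at 13.4 TPM in #3, was below every XY EpiLC library (13.7 to 15.8 TPM). Markers of other lineages also had higher sums in mutant #3 than in the other mutants. The 6 endoderm markers summed to 14.5 TPM in #3, against 0.785 and 0.917 in the other mutants, 0.841 to 0.893 in XX and 9.48 to 11.1 in XY. The 8 mesoderm and streak markers summed to 3.36 to 3.92 TPM in XX and 22.8 to 33.9 TPM in XY. Of these, Mixl1, Gsc, Kdr and Msgn1 were below 0.1 TPM in all XX EpiLC libraries. Their part in the neural values was not tested. Without mutant #3 the Tet3-/- transition was 3.44 for Nes, 1.70 for Sox4 and 2.14 for Sox11, and each stayed called.

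**Figure D3:**
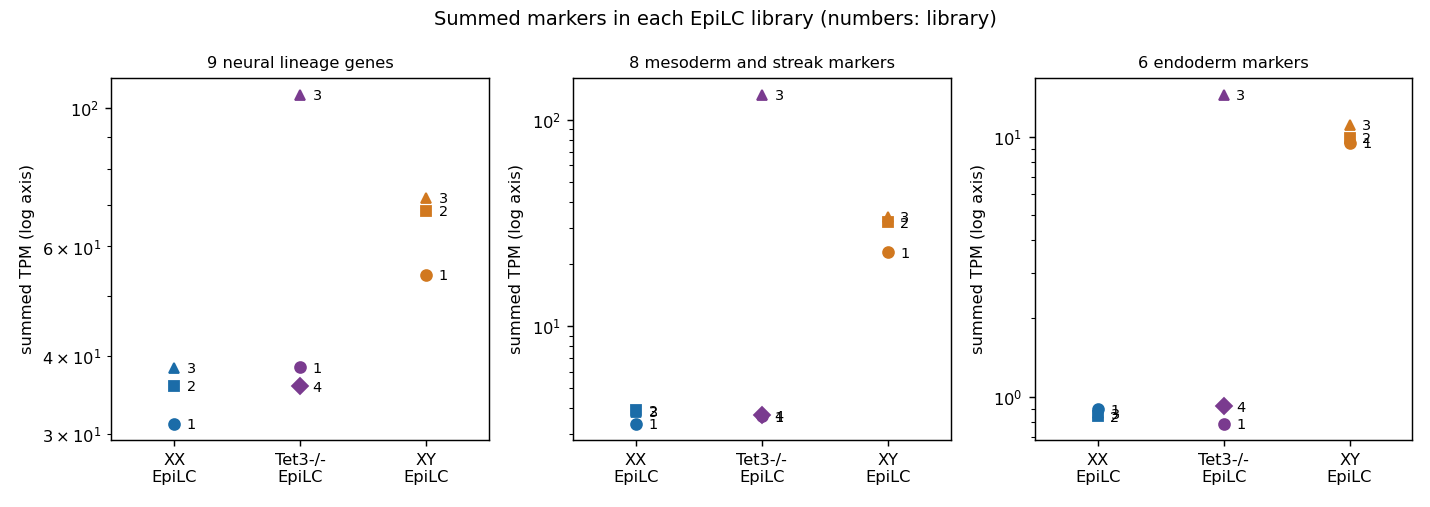
Summed TPM (log axes) of the 9 neural lineage genes, 8 mesoderm and primitive streak markers and 6 endoderm markers in each EpiLC library; numbers are libraries or mutants. On TPM mutant #3 is highest in all 3 panels (105, 132 and 14.5 TPM), and XX lies with mutants #1 and #4. The sums are not scaled, and scaling factors were 0.754 for #1, 0.654 for #4 and 1.37 to 1.70 in XY. Nes makes up 72.8 of the 105 TPM.

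XX and XY cells differed in EpiLC. Sox4 was lower in XX by a log2 difference of -1.23 (SE 0.25, limma adjusted p = 0.00106), Sox11 by -1.22 (SE 0.25, limma adjusted p = 0.00113) and Ncam1 by -1.38 (SE 0.40, limma adjusted p = 0.0115). These 3 of 5 stand beside a background of 42% of all tested genes lower and 47.2% called, on a scale where the median gene was lower by 0.59. On scaled TPM the 3 stayed lower, by -0.56, -0.56 and -0.84 (limma adjusted p = 0.0335, 0.00126 and 0.0339), with 16.6% of genes lower. Every XX library was below every XY library for these 3 genes and for Nes on TPM, which held for 65.8% of tested genes. Tubb3 was apart the other way, with 1.63 to 2.10 TPM in XX and 1.02 to 1.28 TPM in XY. Nes changed sign with the scale, from -0.47 (limma adjusted p = 0.219) to 0.24 (limma adjusted p = 0.22), and was called on TPM in a fit of these groups alone (-0.47, limma adjusted p = 0.0288). Tubb3 had a difference of 0.41 (limma adjusted p = 0.588, or 0.00812 in a fit of these groups alone), which was -0.094 with Gm20388 summed. The fit of these groups alone called 10900 of the 14972 tested genes. The same XY EpiLC libraries had the higher sums of mesoderm, endoderm and formative markers (282 to 363 TPM for the 6 formative markers, Fgf5 and Otx2 among them, against 41.0 to 49.0 in XX).

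In mESC no tested member differed between XX and XY on TPM (background 14.2% called). At an unadjusted p of 0.05 limma had 4080 genes, Tubb3 among them, with a log2 difference of -1.77 and an adjusted p of 0.0621. Scaled, Tubb3 was called at -1.65 (limma adjusted p = 0.03) and Nes at -0.40 (limma adjusted p = 0.0427), with 31.3% of all genes called. Tubb3 was also called without XX mESC 2 (-2.11, limma adjusted p = 0.0334) and without XY mESC 2 (-2.69, limma adjusted p = 0.00114). With protein-coding transcripts alone its values and the difference of -1.77 were the same. Only the other genes in the fit changed, and the limma adjusted p was 0.045.

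XX and XY cells also differed in how far the transition moved Sox4 (-1.37, SE 0.35, limma adjusted p = 0.0119), Sox11 (-1.12, SE 0.35, limma adjusted p = 0.0362) and Ncam1 (-1.80, SE 0.57, limma adjusted p = 0.0369), against 16% of all tested genes called and 12.4% lower. For Sox11 the direction depends on the 1 TPM added, since the plain ratio of mean EpiLC to mean mESC TPM was 413 in XX and 141 in XY cells, over mESC means of 0.011 and 0.085 TPM. Sox4 kept its call in each of 12 fits without 1 library. Sox11 lost its call in 10 of those, all but the fits without XY mESC 3 or XY EpiLC 1, with differences of -1.16 to -1.03 and limma adjusted p of 0.0523 to 0.0944 in the 10. Ncam1 lost it in 8, all but those without XX mESC 1, XY mESC 1, XY mESC 3 or XY EpiLC 1, with differences of -1.82 to -1.20 and limma adjusted p of 0.0641 to 0.0908 in the 8. Sox11 also lost it with a pseudocount of 0.1 (-0.69, limma adjusted p = 0.418), with no filter (limma adjusted p = 0.0742) and with a filter of 5 TPM (limma adjusted p = 0.0665). Ncam1 lost it with no filter (limma adjusted p = 0.0906). On scaled TPM the differences were -0.83 for Sox4, -0.48 for Sox11 and -1.54 for Ncam1, all still called, beside 23.7% of all genes. Nes differed by 0.05 on TPM (limma adjusted p = 0.951) and by 0.64 on scaled TPM (limma adjusted p = 0.0308), and Tubb3 by 2.18 (limma adjusted p = 0.0972) and 2.43 (limma adjusted p = 0.0314). Without XY mESC 2, Tubb3 differed by 3.11 (limma adjusted p = 0.00401). These Tubb3 values leave out Gm20388, and with both summed the XY change on TPM was smaller, as given above.

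Ncam1 was spread over 6 transcripts with signal, and the authors' estimates divided it differently between libraries. Ncam1-204 and Ncam1-202 have coding sequences of 2544 and 2547 bases, and Ncam1-203 a shorter one of 1815 bases. Ncam1-203 held 45.5, 16.3 and 41.5% of Ncam1 TPM in XX mESC and 5.73, 18.9 and 7.34% in XY mESC, so that XX 2 lay within the XY range. In mutant mESC it held 20.2, 10.3, 13.4 and 20.0%, which overlaps both. Ncam1-204 held 18.7, 51.1 and 23.4% in XX mESC and 64.9, 43.7 and 67.2% in XY mESC. In XY EpiLC Ncam1-204 held 60.2, 61.9 and 56.7% and Ncam1-203 at most 5.90%. Shares among overlapping transcripts are estimates, and at levels of a few TPM they were not tested. The 2 sialyltransferases that add polysialic acid to NCAM1, St8sia2 and St8sia4, did not pass the filter, and their summed level was at most 0.247 TPM in XX EpiLC and 1.54 TPM in mutant #3.

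**Figure D4:**
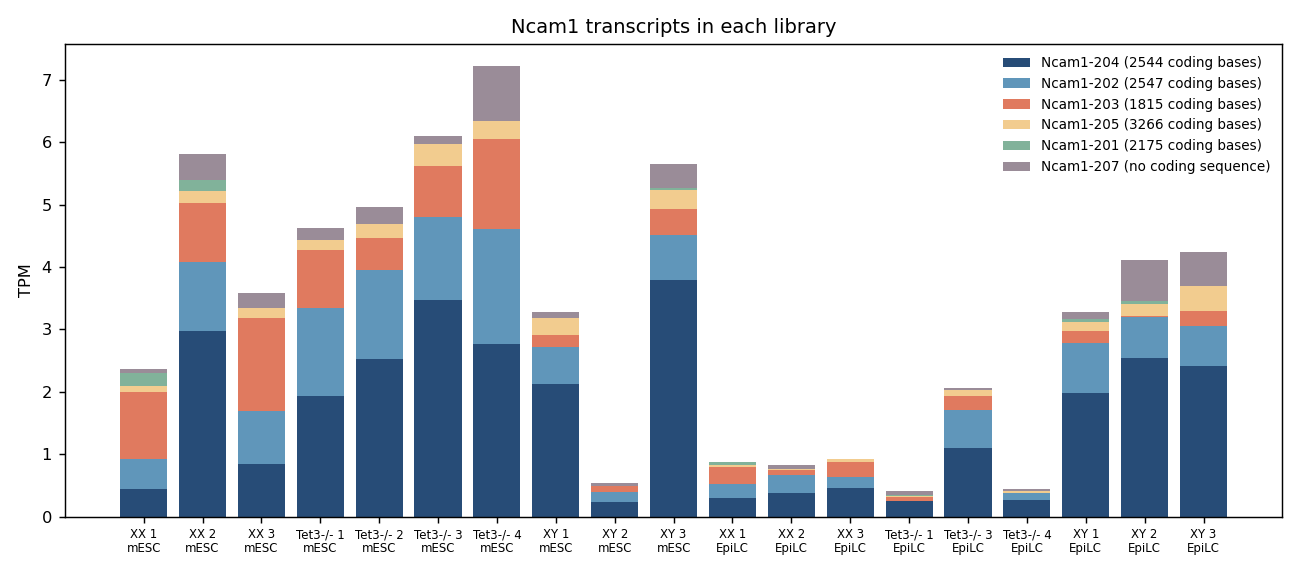
TPM of each Ncam1 transcript (stacked bars from 0) in each library, with the coding length in the key. Bars of XX and Tet3-/- libraries fall from mESC to EpiLC, XY mESC 2 is the lowest mESC bar, and the Ncam1-203 segment is largest relative to its bar in XX mESC 1 and 3.

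Genes around the 9 in the neural programme were counted from lists of the same kind. Of 13 tested Notch pathway genes (of 14), 8 rose in XX, 11 in XY and 9 in Tet3-/-, and none fell, with median log2 fold changes of 1.14, 1.22 and 0.87. On scaled TPM 10 rose in each genotype, and Jag1, a Notch ligand gene named here after its values were seen, fell by 0.53 in XX cells (limma adjusted p = 0.0253) and by 0.85 on the log2 scale in XY cells (limma adjusted p = 0.0012). Hes6, which opposes Hes repressors, rose from 3.07 ± 0.621 to 31.9 ± 3.46 TPM in XX (SD, n = 3 each), or by 3.03 on the log2 scale (limma adjusted p = 4.56e-10). The ligand gene Jag2 rose from 1.94 ± 0.761 to 21.4 ± 4.84 TPM in XX (SD, n = 3 each). The receptor gene Notch2 had the largest rise of the list in XY, from 2.61 ± 1.1 to 36.7 ± 7.57 TPM (SD, n = 3 each).

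Of 10 tested neural progenitor factors (of 22), 5 rose and 2 fell in XX, 7 rose and 3 fell in XY, and 4 rose and 3 fell in Tet3-/-. Scaled, 5 rose and 2 fell in XX, 6 and 3 in XY and 5 and 3 in Tet3-/-. Sox2, shared by pluripotent and neural cells, fell from 73.0 ± 18.9 to 15.8 ± 1.37 TPM in XX and from 90.4 ± 21 to 3.18 ± 0.278 TPM in XY (SD, n = 3 each). Zic2, a relative of Zic1, rose to 70.3 ± 9.33 TPM in XY EpiLC but to 4.09 ± 0.440 TPM in XX EpiLC (SD, n = 3 each). Of 6 tested proneural and commitment genes (of 12), 1 rose in XX, 6 in XY and 2 in Tet3-/-, and none fell. The median of that list on scaled TPM was 0.38, 0.67 and 0.32, and 2, 4 and 3 were higher.

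Of 9 tested progenitor structural genes (of 10), 3 rose and 1 fell in XX, 5 rose and none fell in XY, and 3 rose and 1 fell in Tet3-/-. Scaled, 5 rose and 1 fell in each genotype, the 1 in XY being Vim, the vimentin filament gene (-1.07, limma adjusted p = 0.034), named here after its values were seen. Prom1, a membrane protein of stem and progenitor cells, rose from 0.570 ± 0.178 to 14.3 ± 0.883 TPM in XX (SD, n = 3 each). Of 14 tested cytoskeleton and adhesion genes (of 19), 7 rose and 3 fell in XX, 7 rose and 3 fell in XY, and 8 rose and 3 fell in Tet3-/-. Scaling made this 6 and 5 in XY, where the median turned from 0.38 to -0.05, and 10 and 3 in Tet3-/-, and left 7 and 3 in XX. Among them Crmp1, a collapsin response mediator, rose to 6.18 ± 1.02 TPM in XX EpiLC and Tubb2b, another neural tubulin, fell from 95.6 ± 47.9 to 15.2 ± 0.942 TPM in XY (SD, n = 3 each). Crmp1 had mESC means of 0.037 TPM in XX, 0.073 in Tet3-/- and 0.50 in XY, so it passed the filter through EpiLC. Its rise, and that of any other list gene that passed in this way, follows in part from the filter. The lists are described by their counts, beside the background of each transition given above.

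**Figure D5:**
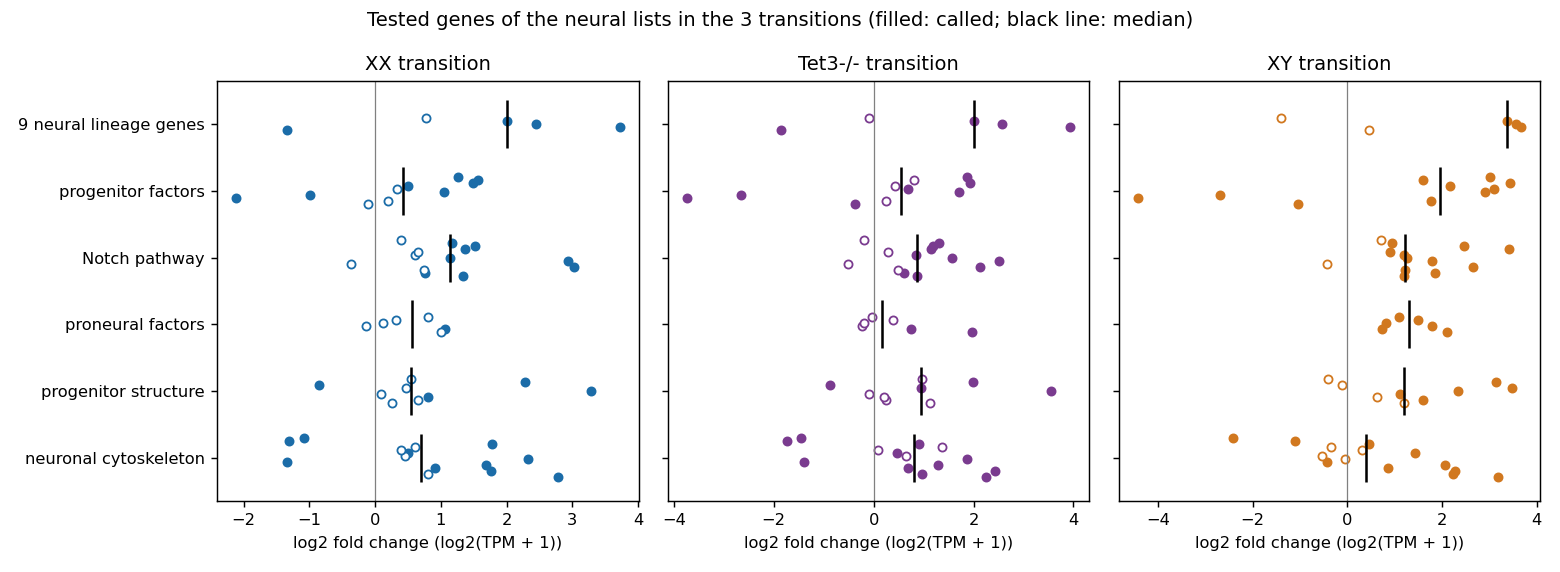
Log2 fold changes from mESC to EpiLC (x axes, log2(TPM + 1) scale, a different range per panel) of every tested gene of the 9 and of 5 other neural lists, in the XX, Tet3-/- and XY transitions. Filled points were called by limma, open points were not, and black lines are medians: the medians of the 5 tested members are 2.00, 2.00 and 3.37.

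Across the 19 libraries the levels of Sox4, Sox11 and Nes went together, with Pearson's r of log2(TPM + 1) of 0.976 for Sox4 and Sox11, 0.964 for Nes and Sox11 and 0.947 for Nes and Sox4. Tubb3 and Ncam1 had r of 0.31 with each other. These describe libraries that fall into 2 states and 3 genotypes and share the TPM scale. Of 9512 candidate genes, Mmp25 was most like Sox11 (r 0.998), Rassf3 most like Nes (0.997), Tdrd5 most like Sox4 (0.989), Gabpa most like Ncam1 (0.970) and Gemin7 most like Tubb3 (0.885).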

How the data were processed

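RNA libraries were stranded, depleted of ribosomal RNA and made from total RNA, per the labels' protocols. The authors deposited TPM for 140948 transcripts, and the submitters' processing notes name FastQC 0.11.7, Trimmomatic 0.35, Salmon 1.1.0 and GRCm38. No role or annotation is given in the sources used here. Columns were matched to libraries by header names that equal the labels' descriptions, and the TPM of a library sums to 1000000 with depth unknown.

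Transcript TPM was summed per gene with GENCODE M21 (139357 matched with version, 495 without, 1096 unmatched and left out). Genes that reached 1 TPM in 3 or more libraries were fitted as log2(TPM + 1) with limma 3.58.1 in R 4.3.3 (6 groups, 9 contrasts, eBayes with trend, no replicate block). The 2-sided p-values of each contrast got a Benjamini-Hochberg adjustment over all tested genes and were called under 0.05. The fit was tested on simulated data. The members and gene lists were chosen with earlier results of these data known. Beside the members, up to 3 called list genes per transition with at least 2 TPM and no overlap of libraries could be named, and the genes of highest r among those of at least 5 TPM.

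The fit was repeated with no filter, a filter of 5 TPM, a pseudocount of 0.1, median-of-ratios scaling, protein-coding transcripts only, fits of the compared groups, a replicate block and each library left out. Summing Gm20388 with Tubb3, and scaling without mutant #3, were added after the data were seen. Promoter sequences came from RefSeq on GRCm38.p6, whose starts can differ from GENCODE, and no protein sequence was used here.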

Additional observations from a re-analysis of the deposited data

Results flagged for a closer look

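The change from mESC to EpiLC differed between XX and XY cells for 3 of the 5 tested genes by a direct test of the difference in limma, which called 16% of all tested genes. The values were -1.37 for Sox4 (adjusted p = 0.0119), -1.12 for Sox11 (adjusted p = 0.0362) and -1.80 for Ncam1 (adjusted p = 0.0369). Without 1 library Sox11 lost its call in 10 of 12 fits and Ncam1 in 8 of 12, and both lost it with no filter (adjusted p = 0.0742 and 0.0906), while Sox4 kept its call in the 12. In EpiLC the XX values of the 3 genes lay below all XY values, as they did for 65.8% of tested genes. Sex and cell line cannot be told apart.

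Hes5 had 0.0474 TPM in mutant #1 of the Tet3-/- mESC, which was far from the 3 other mutants (0.0154 to 0.0202 TPM). It was 1 of 9 groups of 4 libraries examined, and chance gives such a gap in about 1 of 20. The level is close to 0.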

How the results depend on the processing

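Sox4, Sox11 and Nes stayed called higher in the 3 transitions under every alternative run. Ncam1 stayed called lower in Tet3-/- throughout, and in XX lost its call without the filter (-1.34, limma adjusted p = 0.05) and without XX mESC 2. The calls of single members that changed elsewhere stand in the report, and the cause of each change was not tested.

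Values that changed sign were small: for Tubb3 in Tet3-/- against XX EpiLC, -0.14 (pseudocount 0.1), -0.23 (Gm20388 summed) and -0.41 (scaled, without mutant #3). Nes in XX against XY EpiLC was 0.24 scaled, and Tubb3 there was -0.094 with Gm20388 summed. For Tet3-/- minus XX transitions Sox4 was 0.24 scaled and 0.21 scaled without mutant #3, and with the pseudocount of 0.1 Sox11 was -0.13 and Nes -0.19. With 1 library left out the ranges that cross 0 were -0.13 to 0.92 (Ncam1, XY transition, lowest without XY mESC 2), -0.75 to 0.37 (Tubb3, Tet3-/- transition), -0.27 to 0.45, -0.61 to 0.51 and -0.39 to 0.17 (Sox11, Tubb3 and Ncam1, Tet3-/- against XX EpiLC, each lowest without mutant #3), -0.18 to 0.88 (Ncam1, XX against XY mESC), -0.31 to 0.22, -0.31 to 0.42 and -0.28 to 0.48 (Sox4, Sox11 and Nes, Tet3-/- minus XX transitions, lowest without mutant #3) and -0.16 to 0.26 (Nes, XX minus XY transitions).

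Members called changed with no filter to 6 of 9 in the XY transition (3 of 5 in the main analysis) and 5 of 9 in XX against XY EpiLC (3 of 5), where a fit of only those groups gave 5 of 5. That last fit called 10900 of the 14972 tested genes. Scaling gave 1 in Tet3-/- against XX EpiLC, 2 in XX against XY mESC and 5 in XX minus XY transitions. Protein-coding transcripts alone gave 1 in XX against XY mESC, Tubb3, whose own values were unchanged. Without 1 library these counts ran from 0 to 1 in XX against XY mESC (1 without XX mESC 2 or XY mESC 2) and from 1 to 3 in XX minus XY transitions.

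Counts over all genes also moved. With a filter of 5 TPM there were 2682 (XX), 4748 (XY) and 3101 (Tet3-/-) in the transitions, 26 (mESC) and 99 (EpiLC) between Tet3-/- and XX, 1174 for XX against XY mESC, 10 for Tet3-/- minus XX and 1124 for XX minus XY transitions. Scaling gave 7541 in the XX transition, 476 and 818 for Tet3-/- against XX, 4683 for XX against XY mESC and 99 for Tet3-/- minus XX. The pseudocount of 0.1 gave 34 (Tet3-/- against XX mESC) and 17 (Tet3-/- minus XX), no filter gave 55 and protein-coding transcripts 46 in these same comparisons. Fits of only the compared groups gave 2 and 11 for Tet3-/- against XX, 800 for XX against XY mESC and 10900 in EpiLC. Without 1 library the counts ran from 15 to 365 and 39 to 318 (Tet3-/- against XX), 1353 to 3497 and 4068 to 6774 (XX against XY) and 11 to 102 (Tet3-/- minus XX).

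Libraries with the same number did not deviate together in each pair (r from -0.05 to 0.30 over the 9 pairs), so the numbers were not taken as pairs. With a replicate block 53 genes were called for Tet3-/- against XX mESC and 1 for Tet3-/- minus XX transitions. Under the block the Sox11 difference between XX and XY transitions had an adjusted p of 0.0586, and Tubb3 was called in the XY transition (0.0197) and in the XX and XY difference (0.0384).

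Depth is unknown, so precision rests on 3 or 4 libraries a group, and values of Sox1, Pax6, Hes5 and Zic1 near 0 allow no fold.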
